A study of Mus musculus with 2 samples.

Results

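The 8 genes described here belong to the NRF2 oxidative stress response: Nfe2l2, Sqstm1, Gclc, Gclm, Txnrd1, Prdx1, Srxn1 and Nqo1. They were chosen by name from the 32285 genes of the count tables, and all 8 were present. RNA was measured in single live CD45+ cells, the surface protein carried by blood-derived cells, sorted from subcutaneous B16.SIY tumours grown in B6 mice until day 14. B16 is a murine melanoma line, and SIY names the model antigen that it was made to express. In the control group the tumour cells had been transduced with a lentivirus for a control shRNA, and in the knockdown group with one for an shRNA against Decr2, a peroxisomal 2,4-dienoyl-CoA reductase. Both lines were cultured with puromycin before injection, and the mice themselves carried no named modification in the labels. Each group was 1 library, which leaves every difference without a replicate check. Neither the number of tumours pooled per library nor the age of the mice is stated in the labels.

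NRF2, the protein of Nfe2l2, is a transcription factor that KEAP1 holds back by sending it for degradation. Oxidants and electrophiles modify KEAP1, and NRF2 then accumulates, pairs with a small MAF protein and binds antioxidant response elements beside genes for glutathione synthesis, the thioredoxin system and quinone reduction. The autophagy adaptor p62, from Sqstm1, can bind KEAP1 and free NRF2. In macrophages NRF2 is known for limiting oxidative damage and inflammatory gene expression, and in tumour cells its targets bear on the defence against lipid peroxides.

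The sequences that tie these genes together are short, so the matches to the core of the antioxidant response element are printed. The letters TGACNNNGC, or GCNNNGTCA for the other strand, were searched in RefSeq promoter windows on GRCm38.p6, from 250 bases before to 50 bases after each start. No other motif was searched. A match was present in 12.4% of 32851 windows of that length, and 14.0% of 27025 genes had a match in at least 1 window. The members had 9 windows from 7 genes, and 5 windows from 5 genes held a match. Capitals mark the 9 letters of the motif, and each sequence runs 5′ to 3′ on the gene's strand.
Nfe2l2: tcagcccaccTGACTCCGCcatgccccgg
Gclm: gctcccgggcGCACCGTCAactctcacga
Txnrd1: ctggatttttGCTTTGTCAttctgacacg
Prdx1: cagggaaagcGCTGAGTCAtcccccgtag
Srxn1: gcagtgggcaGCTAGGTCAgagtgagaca
The Nfe2l2 match began 240 bases before the start (chr2:75704885-75704913, minus strand). The Gclm match began 134 bases before it (chr3:122245413-122245441, plus strand), and that of Prdx1 133 bases before it (chr4:116685456-116685484, plus strand). For Txnrd1 the match lay 92 bases before 1 of 3 listed starts (chr10:82859104-82859132, plus strand). The Srxn1 match began 28 bases after the start, inside the transcript (chr2:152105542-152105570, plus strand). Nqo1 and Sqstm1 had no such letters in their windows, and sequence farther from the start was not searched. Gclc had no window and was not searched. A match is a description of the letters and not a measured site.

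Cells were assigned to 15 classes by marker genes, called gates here, and 10 of these had at least 50 cells in both libraries. Macrophages were split by C1q genes (71 control and 71 knockdown cells) and by Inhba, Thbs1 and Ptgs2 (186 and 125 cells). Another macrophage gate, marked by Spp1 and Arg1, held 49 and 36 cells, under the minimum for a comparison. It entered the sum of the macrophage gates (306 and 232 cells), and its levels are given where named. There were 460 and 354 monocytes, 317 and 308 conventional dendritic cells, 1808 and 1444 CD8 T cells, 3066 and 2231 NK cells, and 116 and 155 melanoma cells. The remaining gates compared were CD4 T, regulatory T and B cells. Melanoma cells do not carry CD45, so those read here are tumour cells that passed the sort and not a sample of the tumour. All 8 melanoma markers were detected in them in both libraries. In the C1q gate Cd163, a scavenger receptor of tissue macrophages, was at 0 in both libraries.

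Kept cells had a median of 2877 UMIs (unique molecular identifiers, each 1 captured RNA molecule) under the control shRNA and 4443 under the Decr2 shRNA. Immune cells were deeper in the knockdown library in every gate compared, whereas melanoma cells had medians of 5683 control and 1252 knockdown UMIs. The libraries shared 34 cell barcodes, 24 of them among kept cells. Decr2 itself was at 5.21 CPM in control and 4.37 CPM in knockdown cells, a ratio of 0.839 (0.688 to 1.02). Melanoma cells held 20 and 10 Decr2 UMIs, a ratio of 0.555 (0.232 to 1.24), so the knockdown was not resolved at this depth. Melanoma markers, summed, reached 0.605% to 3.26% of their melanoma level in the immune gates, a measure of free RNA. Levels are given as CPM, the UMIs of a gene per 1000000 UMIs of its gate and library, control first and knockdown second. Brackets hold exact 95% intervals, which cover counting error only.

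Nfe2l2, the gene of NRF2 (ENSMUSG00000015839, GRCm38 chromosome 2, 75675513 to 75704641, minus strand), was highest in 4 myeloid gates among the 10 gates compared. In Inhba macrophages its level was 425 CPM (383 to 470) in control and 435 CPM (391 to 482) in knockdown cells. Monocytes held 353 and 387 CPM, C1q macrophages 280 and 324 CPM, and conventional dendritic cells 267 and 293 CPM. All 4 myeloid gates lay above melanoma cells, at 114 and 112 CPM, and their intervals did not meet those of melanoma cells in either library. NK cells followed at 72.9 and 75.6 CPM, and CD8 T cells were lowest at 22.3 and 22.9 CPM. Averaged over the 2 libraries, the Inhba macrophage level was 19.0 times that of CD8 T cells. Neighbours in the order from Inhba macrophages to conventional dendritic cells were not separated by their intervals in both libraries, nor were those from NK cells down to CD8 T cells. The contrast was also present per cell. After each cell was thinned to 1000 UMIs, 34.1% of control and 35.5% of knockdown Inhba macrophages held an Nfe2l2 UMI, against 3.06% and 3.75% of CD8 T cells. Without thinning these shares were 69.4% and 79.2% in Inhba macrophages and 14.5% and 23.0% in CD8 T cells.

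**Figure D1:**
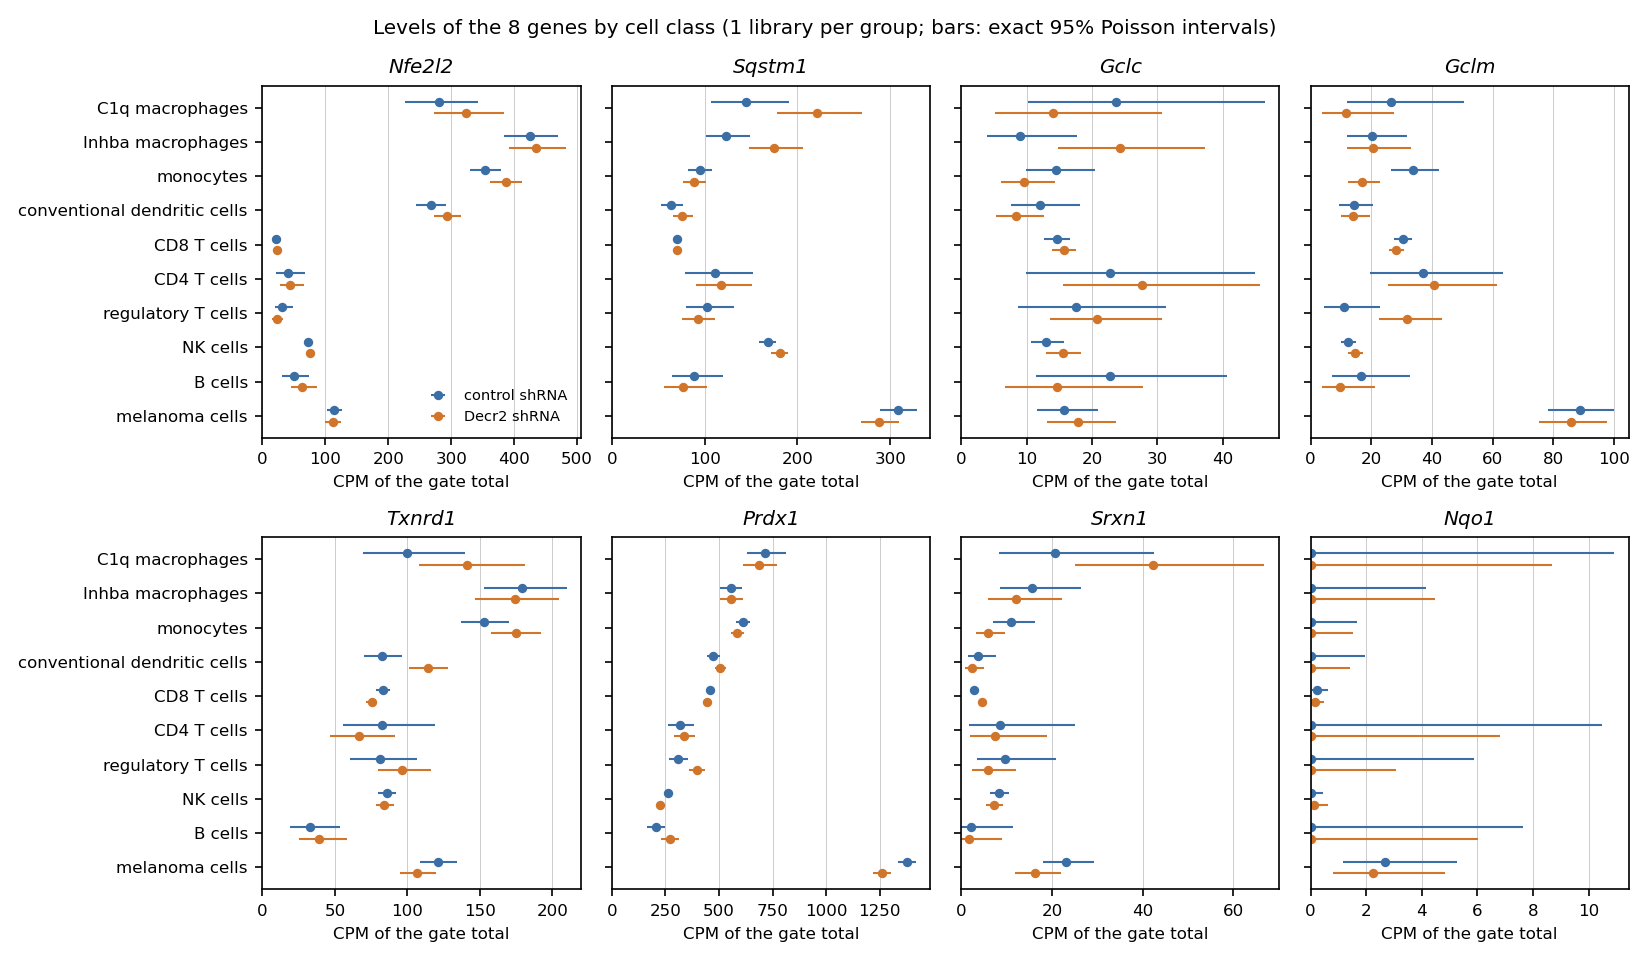
Level of each member in the 10 gates compared, in CPM of the gate total on the horizontal axis, with exact 95% Poisson intervals and 1 point per library. Nfe2l2 sits high in the 4 myeloid gates, at 267 to 435 CPM, Prdx1 and Gclm sit highest in melanoma cells, and Nqo1 is at 0 in most gates.

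Nfe2l2 was close to even between the libraries in the larger gates, and small gates differed in both directions. Over all monocyte and macrophage gates it was 348 CPM in control and 386 CPM in knockdown cells, a ratio of 1.11 (1.03 to 1.19). The single gates gave 1.02 (0.883 to 1.18) in Inhba macrophages, 1.16 (0.884 to 1.52) in C1q macrophages and 1.09 (0.994 to 1.21) in monocytes. In cells thinned to 1000 UMIs the pooled ratio was 0.956, on the other side of 1. Melanoma cells gave 0.977 (0.834 to 1.14), NK cells 1.04 (0.927 to 1.16) and CD8 T cells 1.03 (0.886 to 1.19). B cells held 24 and 39 UMIs, a ratio of 1.28 (0.750 to 2.22). Regulatory T cells held 20 and 27 UMIs, a ratio of 0.706, under the minimum of 50 UMIs set for a comparison. Other weights moved these values: the melanoma ratio was 1.53 with equal weight per cell, and the CD8 ratio 1.54 in cells of 3000 to 10000 UMIs. Among gates with under 50 cells in a library, Spp1 Arg1 macrophages held 140 CPM in control and 327 CPM in knockdown cells, from 32 and 70 UMIs, a ratio of 2.34 (1.52 to 3.67). Mature dendritic cells held 95.8 and 274 CPM, from 8 and 77 UMIs, of which 1 knockdown cell held 23.4%.

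Sqstm1 (ENSMUSG00000015837, chromosome 11, 50199366 to 50210827, minus strand), which encodes p62, was higher in knockdown macrophages. Summed over the macrophage gates it was 134 CPM (116 to 154) in control and 203 CPM (181 to 227) in knockdown cells. The 2 intervals did not overlap, and the ratio was 1.51 (1.26 to 1.82). The pooled level was higher in each macrophage gate. C1q macrophages went from 145 to 221 CPM, a ratio of 1.53 (1.07 to 2.20), and Inhba macrophages from 123 to 175 CPM, a ratio of 1.42 (1.10 to 1.84). The small Spp1 Arg1 gate held 162 and 275 CPM, a ratio of 1.70 (1.11 to 2.64). Monocytes, from which many tumour macrophages derive, held 94.5 and 88.5 CPM, a ratio of 0.937 (0.770 to 1.14). After thinning to 1000 UMIs the monocyte ratio was 0.650, from 56 and 28 UMIs.

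Per cell, 5.56% of control and 15.9% of knockdown macrophages held 3 or more Sqstm1 UMIs, with at most 6 and 11 in a cell. This is before thinning, and knockdown macrophages were deeper, with medians of 6605 UMIs against 4757. After thinning to 1000 UMIs, 14.9% of control and 16.7% of knockdown macrophages held a Sqstm1 UMI, and the ratio of thinned levels was 1.30. In the C1q gate alone the thinned share ran the other way, at 17.4% and 14.7%. In cells of 3000 to 10000 UMIs in both libraries the ratio was 1.53. A list of inflammatory macrophage genes, which includes interleukins and chemokines, was also higher in knockdown cells when summed. The summed ratio was 1.26 (1.23 to 1.29) in macrophages, 1.79 (1.71 to 1.88) in the C1q gate and 1.10 (1.07 to 1.13) in the Inhba gate. Its genes did not all move the same way. In macrophages 12 had enough UMIs to compare, of which 8 were higher and 4 lower at any size. Inhba gave 3.76 (3.34 to 4.25), whereas the interleukin gene Il1b gave 0.926 (0.888 to 0.965) and Ptgs2 0.920 (0.862 to 0.981). Of the 13 genes of that list, Inhba and Ptgs2 also set the Inhba gate. Markers of the macrophage subsets differed within the gates too. In the C1q gate its own markers summed to 6174 CPM in control and 3761 CPM in knockdown cells, and those of the Inhba set to 1824 and 3578 CPM. In the Inhba gate C1q markers summed to 301 and 778 CPM, and Spp1 Arg1 markers to 941 and 1779 CPM. The part of these markers and genes in the Sqstm1 difference was not tested.

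**Figure D2:**
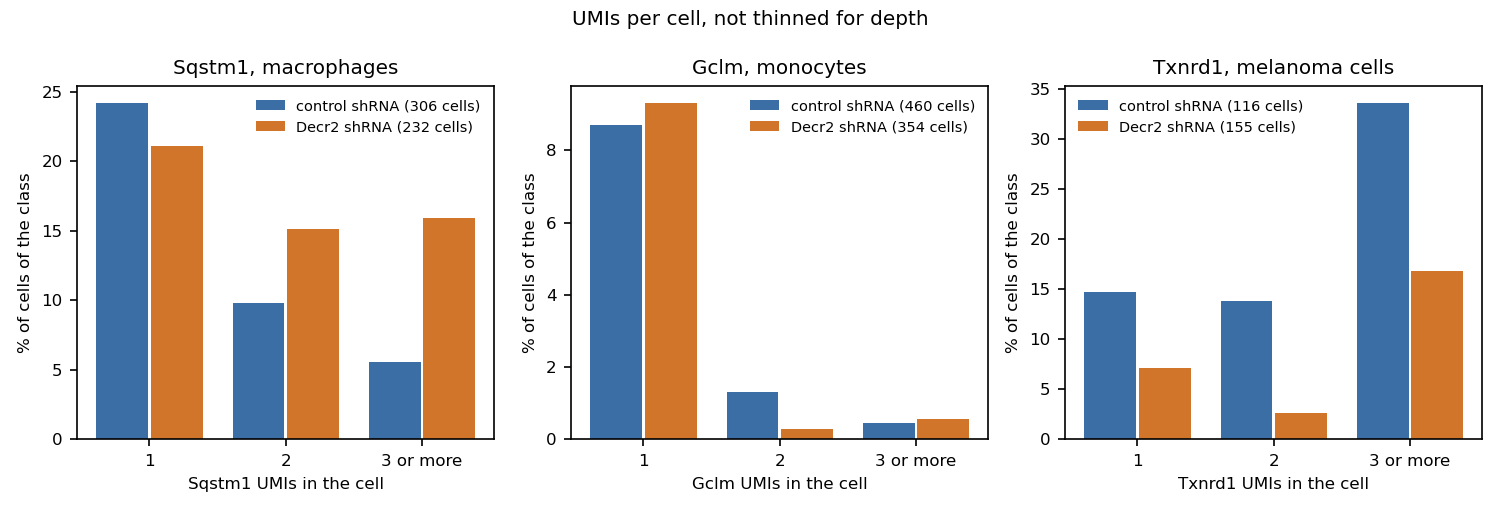
Share of cells, in percent of the class, with 1, 2, or 3 or more UMIs of Sqstm1 in macrophages, Gclm in monocytes and Txnrd1 in melanoma cells, by library and without thinning. Macrophages with 3 or more Sqstm1 UMIs made up 5.56% of control and 15.9% of knockdown cells.

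Outside macrophages Sqstm1 was highest in melanoma cells, at 308 CPM (289 to 329) and 288 CPM (268 to 309), a ratio of 0.933 (0.847 to 1.03). NK cells held 168 and 181 CPM, a ratio of 1.08 (1.00 to 1.16), and stood above CD8 T cells, at 69.7 and 70.7 CPM, beyond the intervals of both libraries. CD8 T cells and conventional dendritic cells, at 63.8 and 75.9 CPM, were lowest. Sqstm1 overlaps Mrnip on the other strand in GENCODE M21. Whether the counting used strand is not stated, so reads of the overlap cannot be assigned with certainty.

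Gclc and Gclm encode the catalytic and modifier subunits of glutamate-cysteine ligase, the enzyme of the limiting step of glutathione synthesis. Gclm (ENSMUSG00000028124, chromosome 3, 122245557 to 122270732, plus strand) was highest in melanoma cells, at 88.7 CPM (78.3 to 100) in control and 85.8 CPM (75.1 to 97.6) in knockdown cells. The next gate, CD4 T cells, held 37.0 and 40.5 CPM, and the intervals were clear of those of melanoma cells in both libraries. CD8 T cells held 30.4 and 28.0 CPM, more than NK cells at 12.3 and 14.6 CPM, again with intervals that did not meet.

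Gclm was the member with the lowest ratio in monocytes. It was at 33.6 CPM (26.4 to 42.2) in control and 17.0 CPM (12.2 to 23.0) in knockdown monocytes, a ratio of 0.505 (0.336 to 0.749). The intervals of the 2 levels did not overlap. The level rested in part on few cells: 1 control monocyte held 14 of the 74 control UMIs, and without the cell with most UMIs of each library the ratio was 0.577. The share of monocytes with a Gclm UMI was nearly equal, at 10.4% and 10.2% before thinning and 1.96% and 1.69% after it. C1q macrophage markers, summed, were 348 CPM in control and 751 CPM in knockdown monocytes. Heat shock and dissociation genes, summed, had a ratio of 0.903 (0.890 to 0.915). Of the 19 genes of that list, 13 lay below 1 and 6 above. Hspa1b gave 0.442 (0.407 to 0.480) and Hspa1a 0.527 (0.504 to 0.551). Egr1 gave 1.30 (1.13 to 1.50) and Junb 1.18 (1.13 to 1.22). Hspa1a was also lower in knockdown conventional dendritic cells (0.452) and CD8 T cells (0.437). The part of these markers and genes in the Gclm difference was not tested.

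In Inhba macrophages Gclm stood at 20.2 and 20.5 CPM, from 18 and 17 UMIs, a ratio of 1.02 (0.492 to 2.09). Over all monocyte and macrophage gates the ratio was 0.653 (0.482 to 0.882), from 111 and 77 UMIs. Regulatory T cells held 7 control and 38 knockdown Gclm UMIs, 11.1 CPM (4.48 to 23.0) and 31.6 CPM (22.4 to 43.4), a ratio of 2.84, under the minimum of 50 UMIs set for a comparison. Conventional dendritic cells gave 0.988 (0.585 to 1.69), CD8 T cells 0.921 (0.809 to 1.05) and NK cells 1.19 (0.909 to 1.56). Gclm overlaps Gm6061 on its own strand and Gm17494 on the other.

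Gclc (ENSMUSG00000032350, chromosome 9, 77754535 to 77794485, plus strand) had the flattest profile of the members. Its mean over the libraries ran from 25.2 CPM in CD4 T cells to 12.0 CPM in monocytes and lower in dendritic cells, and no neighbours in the order were separated in both libraries. In monocytes it was 14.5 CPM in control and 9.52 CPM in knockdown cells, a ratio of 0.655 (0.366 to 1.15), which includes 1. Inhba macrophages held 8 control and 20 knockdown UMIs, 8.97 and 24.2 CPM, a ratio of 2.69 (1.14 to 7.06) from few molecules. The macrophage gates together held 18 and 30 Gclc UMIs, 12.3 and 20.4 CPM, a ratio of 1.66 (0.894 to 3.16), under the minimum of 50 UMIs. Over all monocyte and macrophage gates these evened out, at 12.9 and 13.2 CPM, a ratio of 1.02 (0.679 to 1.53). NK cells gave 1.19 (0.918 to 1.55), CD8 T cells 1.08 (0.896 to 1.29) and melanoma cells 1.13 (0.742 to 1.73).

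**Figure D3:**
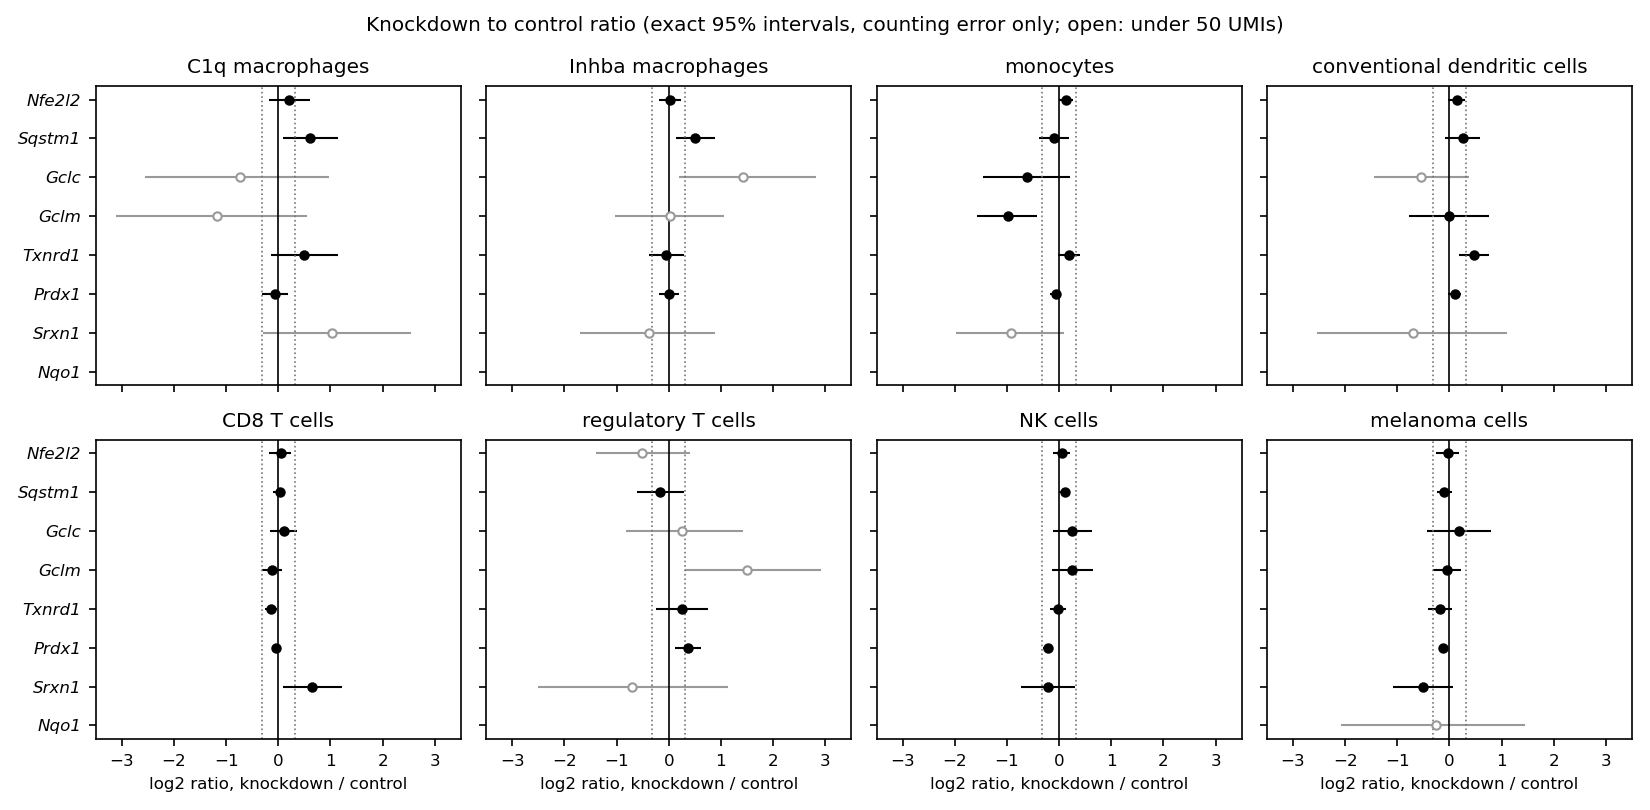
Knockdown to control ratio of each member on a log2 axis in 8 gates, with exact 95% intervals for counting error. Open points had under 50 UMIs over both libraries, members with under 10 UMIs are left out, and dotted lines mark a ratio of 0.8 and its inverse. Sqstm1 lies to the right in both macrophage gates, at 1.53 and 1.42, and Gclm to the left in monocytes, at 0.505.

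Txnrd1 (ENSMUSG00000020250, chromosome 10, 82833951 to 82897712, plus strand) encodes the cytosolic thioredoxin reductase, which keeps thioredoxin reduced with NADPH. Its highest levels were in Inhba macrophages, at 179 CPM (153 to 210) and 174 CPM (147 to 205), and in monocytes, at 153 and 175 CPM. B cells were lowest, at 33.1 and 39.1 CPM. The clearest difference in pooled level was in conventional dendritic cells. They held 82.2 CPM (69.8 to 96.1) in control and 114 CPM (101 to 128) in knockdown, a ratio of 1.39 (1.14 to 1.69). The share of these cells with a Txnrd1 UMI was 31.9% and 50.6% before thinning and 6.98% and 9.09% after it. Haemoglobin and other red blood cell genes summed to 1988 CPM in control and 3.04 CPM in knockdown dendritic cells. Macrophage markers summed to 3917 and 5887 CPM in this gate, and C1q markers to 226 and 334 CPM, while macrophages and monocytes had more Txnrd1 than dendritic cells. The part of these genes in the difference was not tested. In cells of 3000 to 10000 UMIs the ratio was 1.55.

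Elsewhere the pooled Txnrd1 level differed less or was resolved less. Melanoma cells held 362 and 287 UMIs, a ratio of 0.880. It was 0.450 with equal weight per cell and 0.356 after thinning, from 15 and 5 UMIs. Before thinning, 33.6% of control and 16.8% of knockdown melanoma cells held 3 or more Txnrd1 UMIs. Knockdown melanoma cells were shallower, with a median of 1252 UMIs against 5683. C1q macrophages held 34 and 60 UMIs, 100 and 141 CPM, a ratio of 1.40 (0.907 to 2.21) that includes 1 and was 0.676 after thinning. Monocytes gave 1.14 (0.989 to 1.32) and Inhba macrophages 0.969 (0.768 to 1.22). CD8 T cells were slightly lower in the knockdown library, at 83.1 and 75.4 CPM, a ratio of 0.907 (0.839 to 0.981), and NK cells held 85.9 and 84.2 CPM. Txnrd1 overlaps Eid3 on its own strand and Gm38560 and Gm47073 on the other.

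Prdx1 (ENSMUSG00000028691, chromosome 4, 116685544 to 116700822, plus strand) encodes a peroxiredoxin that reduces hydrogen peroxide. It was highest in melanoma cells, at 1379 CPM (1337 to 1422) in control and 1260 CPM (1218 to 1303) in knockdown cells, a ratio of 0.913 (0.873 to 0.956). C1q macrophages came next, at 717 and 688 CPM, and NK cells and B cells were lowest, at 262 and 225 CPM and at 205 and 270 CPM. In NK cells, the largest gate, the ratio was 0.859 (0.808 to 0.913), with 21.9% of control and 20.1% of knockdown cells holding a Prdx1 UMI after thinning. Before thinning these shares were 44.7% and 52.3%, the opposite order.

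Prdx1 was higher in knockdown regulatory T cells, at 307 CPM (265 to 354) in control and 396 CPM (361 to 433) in knockdown cells, a ratio of 1.29 (1.09 to 1.53). After thinning the ratio was 0.941, from 35 and 40 UMIs, too few to settle the direction at equal depth. B cells gave 1.32 (1.02 to 1.71), where 1 knockdown cell held 22.3% of the UMIs. The macrophage gates were even: Inhba macrophages held 555 and 557 CPM, a ratio of 1.00 (0.881 to 1.14), C1q macrophages gave 0.960 (0.807 to 1.14) and monocytes 0.956 (0.887 to 1.03).

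Srxn1 (ENSMUSG00000032802, chromosome 2, 152105516 to 152111376, plus strand) encodes sulfiredoxin, which restores overoxidised peroxiredoxins. It was scarce. Its highest levels were in C1q macrophages, at 20.7 CPM (8.31 to 42.6) and 42.3 CPM (25.1 to 66.8), and in melanoma cells, at 23.1 CPM (18.0 to 29.2) and 16.3 CPM (11.9 to 21.9). The melanoma ratio was 0.708 (0.474 to 1.05). CD8 T cells held 41 control and 83 knockdown UMIs, 2.90 and 4.52 CPM, a ratio of 1.56 (1.06 to 2.32). At matched depth the ratio was 0.955 in cells of 3000 to 10000 UMIs, from 16 and 13 UMIs. After thinning to 1000 UMIs it was 0.624, from 8 and 4 UMIs. Both lay below 1, but these counts are too few to settle the direction. Markers of neutrophils summed to 194 CPM in control and 2.88 CPM in knockdown CD8 T cells, and their part was not tested. Macrophages together held 24 and 31 UMIs, a ratio of 1.28 (0.729 to 2.29), of which 1 knockdown cell held 25.8%.

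Nqo1 (ENSMUSG00000003849, chromosome 8, 107388225 to 107403206, minus strand), a quinone reductase often read as a marker of NRF2 activity, was all but undetected in immune cells. The immune gates together held 4 Nqo1 UMIs in 6660 control cells and 4 in 5205 knockdown cells, 0.133 and 0.108 CPM. All macrophage, monocyte and dendritic cell gates had 0 UMIs in both libraries. Over the monocyte and macrophage gates a count of 0, read as up to 3 counts, allows up to 0.776 CPM in control and 0.731 CPM in knockdown cells. Melanoma cells held 8 and 6 UMIs in 8 and 6 cells, 2.68 CPM (1.16 to 5.27) and 2.23 CPM (0.818 to 4.85), a ratio of 0.832 (0.238 to 2.74). A difference between the libraries was not detectable at this depth.

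Few members passed a fixed size of difference. A gene was counted where it had at least 50 UMIs over both libraries and a ratio of at most 0.8 or, on the upper side, at least the inverse of 0.8, a rule of size and not a test. In macrophages 6 members had 50 UMIs, and 2 of these, Sqstm1 and Srxn1, were higher and 0 lower, while 16.3% of 5306 genes were higher and 16.6% lower. In monocytes Gclm and Gclc, 2 of 6, were lower and 0 higher, against 13.4% and 12.1% of 6519 genes. In CD8 T cells Srxn1, 1 of 7, was higher and 0 lower, against 7.60% and 7.05% of 10411 genes. In NK cells 0 of 7 passed, against 8.86% higher and 6.11% lower of 9700 genes. In melanoma cells Srxn1, 1 of 7, was lower and 0 higher, against 12.2% and 12.9% of 8234 genes. With so few members per gate, the counts by themselves are read as no result about the members. The C1q gate had 2 of 4 members higher, Sqstm1 and Txnrd1, and 0 lower (21.1% and 20.9% of all genes). The Inhba gate had 1 of 4 higher, Sqstm1, and 0 lower (14.5% and 18.4%). Conventional dendritic cells had 1 of 5 higher, Txnrd1, and 0 lower (13.9% in each direction). In regulatory T cells Prdx1, 1 of 3, was higher and 0 lower (16.3% and 15.1%), and in B cells Prdx1 and Nfe2l2, 2 of 3, were higher and 0 lower (17.4% and 14.6%). CD4 T cells had 0 of 3 past the size, against 18.5% higher and 18.4% lower.

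**Figure D4:**
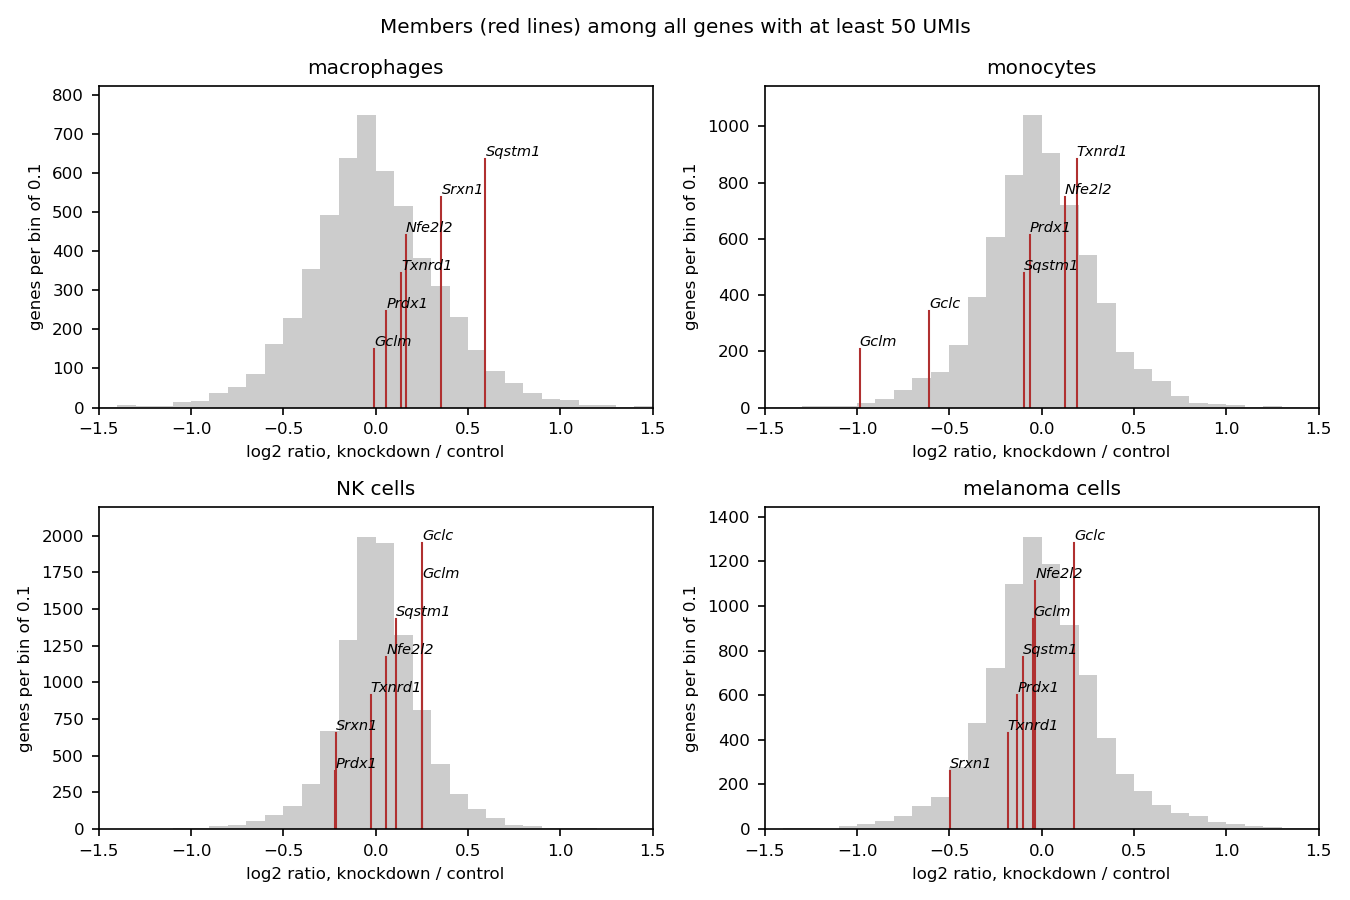
Number of genes per bin of 0.1 in the log2 ratio of knockdown to control (grey), for genes with at least 50 UMIs in the gate, with the members that met this minimum as red lines of arbitrary height. The members farthest from 0 in these 4 panels are Gclm and Gclc in monocytes, at ratios of 0.505 and 0.655, and Sqstm1 in macrophages, at 1.51.

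Other genes of the response were read from lists named for the pathway. In macrophages, 20 of 30 other NRF2 targets had 50 UMIs, of which 3 were higher and 4 lower by the fold. Over all 5306 genes 16.3% were higher and 16.6% lower. The median log2 ratio of the targets was 0.01 beside -0.03 over all genes. Fth1, the iron-storing heavy chain of ferritin, went from 13944 to 20098 CPM, a ratio of 1.44 (1.42 to 1.47), and Ftl1, the light chain, gave 1.19 (1.16 to 1.22). Slc7a11, the cystine importer that feeds glutathione synthesis, gave 1.38 (1.10 to 1.73). Gsr, which recycles glutathione, was lower at 240 and 176 CPM, a ratio of 0.736 (0.624 to 0.866), and the pentose phosphate enzymes Tkt (0.825, 0.721 to 0.944) and Taldo1 (0.877, 0.797 to 0.966) were lower too. The list thus held genes with the direction of Sqstm1 and genes with the opposite one.

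Among 11 measured autophagy genes of 14 listed beside Sqstm1, 3 were higher and 1 lower in macrophages, against 16.3% and 16.6% of 5306 genes. Their median log2 ratio was 0.16. Tax1bp1, another cargo receptor of selective autophagy, went from 397 to 580 CPM, a ratio of 1.46 (1.31 to 1.63). It was not higher in macrophages alone. Monocytes gave 1.28 (1.16 to 1.41) for Tax1bp1, beside 0.937 for Sqstm1, and melanoma cells 1.14 (1.04 to 1.24). Gabarap, a ubiquitin-like protein of the autophagosome, gave 1.21 (1.12 to 1.31), and its relative Gabarapl2 0.705 (0.551 to 0.899). Of the antioxidant enzymes, mitochondrial superoxide dismutase Sod2 was higher, at 256 and 388 CPM, a ratio of 1.52 (1.33 to 1.73), while the glutathione peroxidase Gpx1 gave 0.789 (0.729 to 0.854) and Prdx2 0.792 (0.681 to 0.921).

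Monocytes had the other sign for several targets. Of 23 other NRF2 targets with 50 UMIs, 1 was higher and 4 lower by the fold, against 12.1% higher and 13.4% lower of 6519 genes. Of the 23, 19 had a ratio below 1, and the median log2 ratio was -0.16 beside -0.02 over all genes. Hmox1, the heme oxygenase, went from 227 to 116 CPM, a ratio of 0.510 (0.439 to 0.591), close to that of Gclm. Gss, which completes glutathione synthesis, held 38 and 17 UMIs, a ratio of 0.407 (0.216 to 0.739), and Fth1 gave 0.886 (0.865 to 0.908). Of the regulators and partners, 4 of 9 were higher and 0 lower, beside the same 12.1% and 13.4% of all genes. Bach1, a repressor at antioxidant response elements that is best known for Hmox1, went from 241 to 346 CPM, a ratio of 1.44 (1.29 to 1.61), and the small MAF gene Mafg gave 1.32 (1.02 to 1.72).

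In melanoma cells the 7 members with 50 UMIs had a median log2 ratio of -0.10 beside -0.01 over all genes. These values depended on the gates: without a minimum share of marker UMIs for the other classes, 5 members were lower, among them Prdx1 at 0.775 and Txnrd1 at 0.645. That setting left 43 control and 22 knockdown melanoma cells of at least 10000 UMIs in place of 55 and 31. Under it 13.7% of 7225 genes were lower and 16.3% higher by the same rule. In the main gate, 2 of 26 other NRF2 targets were higher and 6 lower, against 12.9% higher and 12.2% lower of all 8234 genes. Mgst1, a microsomal glutathione transferase, gave 1.54 (1.19 to 2.01), and Ftl1 went from 7657 to 6349 CPM, a ratio of 0.829 (0.813 to 0.846). Gpx4, the peroxidase that removes lipid peroxides and so restrains ferroptosis, gave 0.861 (0.806 to 0.918). Of 15 genes of the ATF4 stress response, 13 had a ratio below 1, as had 51.9% of all 8234 genes, and the list's median log2 ratio was -0.25.

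Melanoma cells were uneven in depth, and the members were read again on either side of 10000 UMIs. Above it were 55 control and 31 knockdown cells, which held nearly all melanoma UMIs, and there Sqstm1 gave 0.906 (0.820 to 1.00), Txnrd1 0.931 (0.791 to 1.09) and Gclm 0.950 (0.790 to 1.14). Below it were 61 control and 124 knockdown cells with 123711 and 185105 UMIs in all. There Sqstm1 was 113 CPM in control and 297 CPM in knockdown cells, a ratio of 2.63 (1.44 to 5.11), and Txnrd1 178 and 54.0 CPM, a ratio of 0.304 (0.128 to 0.669). Prdx1 gave 0.910 in both depth classes. The pooled ratios lay near those of the deep cells, and how deep and shallow cells differ beyond their depth was not tested.

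The smaller lymphocyte gates were read for the members that had molecules enough. CD4 T cells held Sqstm1 at 111 CPM (78.9 to 152) in control and 118 CPM (90.8 to 151) in knockdown cells, a ratio of 1.06 (0.702 to 1.62). Their Prdx1 stood at 319 and 335 CPM, a ratio of 1.05 (0.827 to 1.34), and their Txnrd1 at 82.5 and 66.3 CPM, a ratio of 0.803 (0.479 to 1.36). In regulatory T cells the Sqstm1 levels were 103 and 92.4 CPM, with a ratio of 0.893 (0.652 to 1.23), and Txnrd1 at 81.2 and 96.5 CPM, a ratio of 1.19 (0.848 to 1.69). B cells held Sqstm1 at 89.0 and 76.5 CPM, a ratio of 0.860 (0.557 to 1.33). All of these intervals include 1, and differences smaller than them were not detectable at this depth.

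Some gates were too small to compare and are given as levels only. Mast cells and basophils, 35 control and 21 knockdown cells, held Sqstm1 at 237 CPM (168 to 323) and 283 CPM (206 to 380), as high as melanoma cells within the intervals. Their Nfe2l2 was at 78.9 CPM (42.0 to 135) from 13 UMIs and 219 CPM (151 to 306) from 34 UMIs. Plasmacytoid dendritic cells, 64 and 45 cells, held Nfe2l2 at 94.6 and 78.2 CPM, below the conventional dendritic cells in both libraries. Their Prdx1 was at 360 and 385 CPM, and Srxn1 was at 0 UMIs in both libraries.

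Across 20 profiles, 10 gates in each of the 2 libraries, the members did not move as 1 group. The Pearson correlation of log2 levels was 0.78 between Srxn1 and Sqstm1 and 0.70 between Nfe2l2 and Txnrd1, but -0.41 between Nfe2l2 and Gclc and -0.15 between Nfe2l2 and Gclm. Profiles of 1 gate share its cell class and profiles of 1 library share its depth, so these values describe the profiles only. The genes most like Nfe2l2 were Neat1 (0.981), Tpd52 (0.972) and Psap (0.969). The nearest profile to Txnrd1 was that of Pgd (0.930), an enzyme of the pentose phosphate pathway, to Prdx1 that of Mydgf (0.948), to Sqstm1 that of Appl2 (0.892) and to Gclm that of Timm17a (0.869).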

How the data were processed

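The deposited files held raw UMI counts for each gene in each barcode, which the authors produced with Cell Ranger 6.1.2 against mm10 (per the file headers and the submitters' processing notes). Those notes also list Seurat 4.3, but the deposited counts carried no normalisation. For the annotation and the strand setting of the counting, nothing is stated in the labels. Totals were 47538493 control UMIs (11335 barcodes) and 55417986 knockdown UMIs (9542 barcodes).

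Filters asked for 200 genes, 500 UMIs and no more than 10% mitochondrial UMIs. Scrublet (scanpy 1.11.5) scored doublets per library, and the top 0.8% per 1000 barcodes went (1043 and 731), leaving 8937 and 6894 cells. Gates asked for a number of markers and for a minimum share of marker UMIs (5 per 10000 for macrophages, 3 for conventional dendritic cells, 10 for other classes, 0.2% for melanoma). Cells with markers of several classes (207 and 206) and in no gate (1954 and 1328) were left out. All gate thresholds were set after the data had been seen. The minimum shares were added after member values had been seen, because without those of the other classes deep melanoma cells were set aside as mixed. Without these shares 43 control and 22 knockdown melanoma cells of at least 10000 UMIs were kept, and with them 55 and 31. The melanoma minimum of 0.2% was in place in both cases. The members and gene lists were chosen with earlier results of these data known. Genes of the lists were named by how far the nearer bound of their interval lay from 1, up to 3 each way per list, among genes with 50 UMIs whose interval excludes 1. Not every gene this rule took is printed.

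Counts were summed per gate and library. Levels carry exact Poisson and ratios exact conditional binomial 95% intervals. No p-values are given, since a group was 1 library. UMIs gather in single cells, so the true error can be larger than these intervals. The interval code was tested on simulated counts. Profiles used log2(CPM + 10) and genes with at least 50 CPM. Ddit3 has 2 gene IDs in the files and is not printed. Gene positions are from GENCODE M21 on GRCm38, the assembly of mm10.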

Additional observations from a re-analysis of the deposited data

How the results depend on the processing

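No paired analysis was possible because each group was 1 library with no replicate number. Of 77 member ratios, all 77 stayed within the counting interval of their main value with a stricter or looser cell filter, with doublets kept, with either other scaling, without the cell with most UMIs of the gene and without shared barcodes. Counts of members past the size rule were small and moved by 1 to 4 members; the cause was not tested. In macrophages the count of 2 became 1 with a stricter gate, without the top cell, at a minimum of 200 UMIs and at a fold of 1.5; the member that stayed each time was Sqstm1. In monocytes 2 became 1 with a stricter gate, with equal weight per cell and after thinning, and 0 at a minimum of 200 UMIs. In CD8 T cells 1 became 3 (1 higher, 2 lower) in cells of 3000 to 10000 UMIs and 0 after thinning or at 200 UMIs. In NK cells 0 became 1 higher with doublets kept, with equal weight per cell or after thinning, and 2 higher with a stricter gate. It became 2 (1 higher, 1 lower) in cells of at least 10000 UMIs and 3 (1 higher, 2 lower) in cells of 3000 to 10000 UMIs. In melanoma cells 1 became 2 with a stricter cell filter, both lower. With equal weight per cell the 2 were Nfe2l2, higher at 1.53, and Txnrd1, lower at 0.450, and Srxn1 no longer passed. The count became 0 in cells of 3000 to 10000 UMIs, after thinning, at 200 UMIs and at a fold of 1.5. Without the minimum share of marker UMIs for classes other than melanoma, chosen after seeing the data, the melanoma count became 5, all lower. The ratios were 0.759 for Gclm, 0.645 for Txnrd1, 0.775 for Prdx1, 0.767 for Sqstm1 and 0.566 for Srxn1. Over all settings, 84 of 1025 values lay on the other side of 1 from the main value, 54 of them within its counting interval, and thinning gave 25 of the 84. Among ratios past the size rule, those that changed side were Txnrd1 in C1q macrophages (0.676 after thinning), Srxn1 in CD8 T cells (0.955 in cells of 3000 to 10000 UMIs and 0.624 after thinning), Prdx1 in regulatory T cells (0.941 after thinning), Nfe2l2 in B cells (0.948 with cells of several classes kept), Srxn1 in melanoma cells (1.07 after thinning) and Srxn1 in macrophages (0.888 with a stricter gate). Others moved beyond the counting interval to the other side of 1, such as Sqstm1 in melanoma cells (0.933 to 2.41 in cells of 3000 to 10000 UMIs), Srxn1 in Inhba macrophages (0.769 to 2.98 after thinning), Nfe2l2 in monocytes (1.09 to 0.866 after thinning) and Nfe2l2 in melanoma cells (0.977 to 1.53 with equal weight per cell). Thinning leaves few UMIs of the scarce members, so those values have wide counting error. Sqstm1 in macrophages stayed between 1.30 and 1.54 over all settings run, and Gclm in monocytes between 0.459 and 0.650.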
